A study of Mus musculus with 16 samples.

Results

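The 7 keratin genes Krt7, Krt8, Krt18, Krt19, Krt20, Krt23 and Krt80 were followed by gene name through 16 cultures of mouse jejunal enteroids, as 7 of 54532 genes in the table of counts. Enteroids are epithelial cultures grown from intestinal crypts, here from adult mice and in medium without Wnt ligands and EGF, which favors differentiation. The cultures form 4 groups of 4, and the study states that the cultures of a group came from 4 mice. MYO5BΔIEC enteroids were Vil-CreERT2;Myo5b-flox/flox, so that the Villin promoter restricts Cre to the epithelium, and were given 1 µM 4-OH-tamoxifen for 24 h and then vehicle (PBS) for 2 days. MYO5B(G519R) enteroids were Vil-CreERT2;Myo5b-flox/G519R with the same induction and no further treatment, so that only the G519R allele of the motor protein myosin Vb stays after recombination. Treated enteroids were MYO5BΔIEC with the same induction and 100 nM Compound-1, an agonist of the lysophosphatidic acid receptor LPAR5, for 2 days. The label of the control group gives no alleles. The methods describe controls as vehicle-treated cultures of the flox/flox mice, and the legend calls them healthy littermates. The labels name 4-OH-tamoxifen for the other groups only, so an effect of this drug and of MYO5B loss cannot be told apart in a comparison with control.

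Keratins are the intermediate filament proteins of epithelial cells. Each filament is built from pairs of a type I and a type II chain, and an unpaired chain is degraded. KRT8 (type II) with KRT18 (type I) is the pair of simple epithelia, KRT19 and KRT20 are the further type I chains of the intestine, and KRT20 is known for the differentiated cells of the villus. KRT7 is a type II chain best known from ducts and glands, and KRT80 is a type II chain linked to desmosomes. KRT23 is a type I chain whose role in the intestine is less settled. Filaments are anchored to the membrane at desmosomes and hemidesmosomes through plakin proteins.

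The members lie in both keratin clusters of the mouse genome (coordinates of the deposited table, GRCm38). On chromosome 15 are the type II genes Krt80 (ENSMUSG00000037185, 101347444 to 101370162, minus strand), Krt7 (ENSMUSG00000023039, 101411043 to 101430313, plus strand) and Krt8 (ENSMUSG00000049382, 101996698 to 102004482, minus strand). The type I gene Krt18 (ENSMUSG00000023043, 102028180 to 102032027, plus strand) lies in the type II cluster, 23697 bases from its filament partner Krt8. On chromosome 11, all on the minus strand, are the type I genes Krt20 (ENSMUSG00000035775, 99428403 to 99438150), Krt23 (ENSMUSG00000006777, 99477974 to 99493137) and Krt19 (ENSMUSG00000020911, 100140810 to 100148665). Krt20 and Krt23 are 39823 bases apart, and Krt80 and Krt7 are 40880 bases apart.

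RefSeq promoter windows (GRCm38.p6, 250 bases before to 50 after the start site) were found for 5 of the 7 genes. Those of Krt8, Krt18, Krt7 and Krt20 are shown because the first pair encodes the partners of the main filament, Krt7 did not overlap between groups in any comparison with control or with Compound-1, and Krt20 varied apart from the rest. Capitals mark matches to 6 motifs, searched on both strands. The windows are chr15:102004293-102004592 (Krt8, minus strand), chr15:102027966-102028265 (Krt18, plus strand), chr15:101412153-101412452 (Krt7, plus strand) and chr11:99438104-99438403 (Krt20, minus strand), each written 5′ to 3′ on the strand of the gene.
Krt8: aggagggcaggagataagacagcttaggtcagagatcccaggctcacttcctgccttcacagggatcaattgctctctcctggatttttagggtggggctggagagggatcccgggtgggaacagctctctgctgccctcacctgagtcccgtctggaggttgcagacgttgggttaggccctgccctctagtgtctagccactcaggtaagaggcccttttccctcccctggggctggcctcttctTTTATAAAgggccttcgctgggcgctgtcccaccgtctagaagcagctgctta
Krt18: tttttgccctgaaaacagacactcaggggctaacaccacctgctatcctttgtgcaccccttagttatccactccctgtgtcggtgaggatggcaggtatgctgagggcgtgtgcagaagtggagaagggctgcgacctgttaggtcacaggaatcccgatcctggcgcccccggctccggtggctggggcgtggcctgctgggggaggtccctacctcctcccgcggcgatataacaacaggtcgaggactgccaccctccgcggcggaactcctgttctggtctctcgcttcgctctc
Krt7: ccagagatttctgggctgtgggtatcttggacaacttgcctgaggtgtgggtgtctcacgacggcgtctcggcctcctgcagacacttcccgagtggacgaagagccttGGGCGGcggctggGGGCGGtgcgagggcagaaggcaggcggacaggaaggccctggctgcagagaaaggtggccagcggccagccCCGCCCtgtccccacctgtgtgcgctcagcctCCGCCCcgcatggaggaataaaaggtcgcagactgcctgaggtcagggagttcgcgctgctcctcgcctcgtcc
Krt20: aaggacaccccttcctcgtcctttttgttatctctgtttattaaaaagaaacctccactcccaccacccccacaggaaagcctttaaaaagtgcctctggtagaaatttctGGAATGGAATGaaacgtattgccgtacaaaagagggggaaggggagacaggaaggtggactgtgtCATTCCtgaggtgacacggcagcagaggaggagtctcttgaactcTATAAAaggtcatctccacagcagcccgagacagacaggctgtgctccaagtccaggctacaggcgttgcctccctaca

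The capitals in the Krt8 window are a TATA box on each strand, overlapping each other, with the first base 1 base before the start site on the strand of the gene. The Krt7 window held 4 GC boxes, of which 2 were on each strand. The Krt20 window held a TATA box with its first base 29 bases before the start site and 3 matches to GGAATG, of which 2 overlap by 1 base. None of the 6 motifs was in the windows of Krt18 and Krt23. Of 32851 promoter windows of this length, 13.6% held the TATA box, searched as TATAAA. The GC box, with the letters GGGCGG, was in 35.7% of them. The AP-1 motif TGANTCA was in 7.81%, and the TEAD motif GGAATG in 14.7%. The CDX motif was taken as CAATAAA and found in 4.6%, and the KLF motif GGGTGTG in 7.95%. A match describes letters and not a bound site.

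Between 27804968 and 40101729 reads were counted per culture, and a count of 0 allows up to 0.0737 to 0.111 CPM (counting error only, at 3 counts). Levels of 1 gene across cultures are given in CPM (counts scaled to the TMM library size), and levels between genes in FPKM, which also divides by gene length. The targeted gene Myo5b averaged 189 ± 29.9 CPM for control (SD, n = 4), 128 ± 31.0 for MYO5BΔIEC, 150 ± 17.0 for MYO5B(G519R) and 111 ± 26.8 for treated enteroids, and its fall against control passed the test in treated enteroids only (edgeR adjusted p = 0.0146, against 0.0503 in MYO5BΔIEC and 0.109 in MYO5B(G519R)). These counts cover the whole gene, with the G519R allele where it stays, and how complete recombination was cannot be read from them. The epithelial gene Vil1 was at 385 CPM in control, and 10 fibroblast and muscle markers, of which 3 were at 0 everywhere, summed to at most 2.02 CPM in any culture. Mitochondrially encoded genes took 6.41 to 10.4% of counts in control and 3.79 to 6.63% in the other groups, and with them left out of library sizes as many members were called in each comparison. Control culture 1 stood apart from the other controls. Its 12 enterocyte markers summed to 6121 CPM against 20988 to 25965 in the other controls, its 7 regenerative and fetal markers to 333 against 107 to 126, and its 8 markers of stratified epithelium to 81.9 against 9.49 to 15.7. Results are also given without it. In bulk RNA, more cells of a type and more RNA per cell cannot be told apart.

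In control enteroids, Krt8 was the most abundant member at 1213 ± 211 FPKM (SD, n = 4), rank 50 of all genes. Krt19 followed at 722 ± 78.9 FPKM (rank 93), Krt18 at 490.2 ± 69.2 (rank 139) and Krt20 at 121 ± 33.8 (rank 499). Krt7 was at 35.9 ± 3.26 FPKM and Krt23 at 26.5 ± 3.35, and Krt80 was barely detected at 0.168 ± 0.0734 FPKM. No neighbors in this order overlapped over the control cultures. In the other 3 groups the means kept the order from Krt8 down to Krt20, but Krt7 and Krt23 overlapped in each of them (47.7 to 56.3 and 36.5 to 64.7 FPKM in MYO5BΔIEC). The 7 genes made up 99.7 ± 0.0800% of the FPKM of all 54 keratin genes in control.

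Krt8 was higher in both MYO5B models than in control. Control cultures 1 to 4 had 3013, 2336, 2252 and 2147 CPM, against 3407, 3953, 3820 and 4038 for MYO5BΔIEC. MYO5B(G519R) cultures had 3049, 3068, 4228 and 3883 CPM. Neither model overlapped control, although the 2 lowest MYO5B(G519R) cultures were close to control culture 1. In treated enteroids it was 3939, 5571, 6631 and 4887 CPM, with culture 1 inside the range of the untreated ones.

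Its partner Krt18 had the smallest fold change against control of the 7 in both untreated models. Controls were at 856, 638, 692 and 706 CPM, and MYO5BΔIEC at 792, 1061, 927 and 1042. MYO5B(G519R) cultures had 834, 831, 1098 and 1038 CPM, and treated ones 952, 1416, 1699 and 1163. Control culture 1 was above the lowest culture of MYO5BΔIEC and the 2 lowest of MYO5B(G519R), and the treated group alone lay wholly above control.

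Krt19, the other abundant type I gene, was at 1570, 1345, 1307 and 1279.9 CPM in control against 2001, 2335, 2260.2 and 2407 with MYO5BΔIEC, and 1748, 1805, 2422 and 2212 with MYO5B(G519R). Treated cultures were at 2153, 3442, 4218 and 3057 CPM. All 3 groups were above every control culture.

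Krt7 was at 286, 264, 239 and 249 CPM in control, and MYO5BΔIEC cultures were at 360.3, 381, 339 and 404. For MYO5B(G519R) the values were 328, 335, 463 and 445 CPM. In treated cultures it was at 419, 602, 978 and 619.6 CPM. It was the only member in which every treated culture was above every untreated MYO5BΔIEC culture, against 1.59% of the genes tested, and no member lay wholly below (1.27% of genes).

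Control levels of Krt23 were 49.4, 38.8, 42.9 and 39.5 CPM, below 57.7, 99.7, 91.2 and 67.4 for MYO5BΔIEC and 59.4, 61.5, 102 and 69.8 for MYO5B(G519R). Treated cultures were at 84.3, 95.5, 286 and 149.9 CPM. Treated culture 3 was 1.91 times as high as the next treated culture, and its level was the highest of all 16 cultures for 6 of the 7 members.

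Krt20 did not follow this order. Controls had 159, 324, 254 and 223 CPM, and MYO5BΔIEC 499, 394, 539 and 321. The values were 293, 316, 447 and 299.7 CPM for MYO5B(G519R), and 438, 455, 435 and 319 with Compound-1. Control culture 1, highest of the controls for the other members except Krt80, was lowest for Krt20. Its highest culture was MYO5BΔIEC culture 3, and control culture 2 overlapped all 3 groups.

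Krt80 was at the lower end of detection, with 16 to 47 counts per control culture. This is 1.44, 1.56, 0.801 and 0.593 CPM, against 2.13, 2.31, 2.02 and 3.42 for MYO5BΔIEC and 2.27, 2.22, 3.46 and 2.93 for MYO5B(G519R). With Compound-1 it was at 3.52, 3.20, 5.60 and 4.57 CPM. None of the 3 groups overlapped control. The antisense gene Gm35853 spans the locus and had 6 to 62 counts, up to 93.0% of those of Krt80 in the same culture. Its log2 fold change was 1.42 in MYO5BΔIEC (edgeR adjusted p = 0.0892). Whether counting used strand is not given in the sources used here, and without it reads of both genes cannot be told apart.

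**Figure D1:**
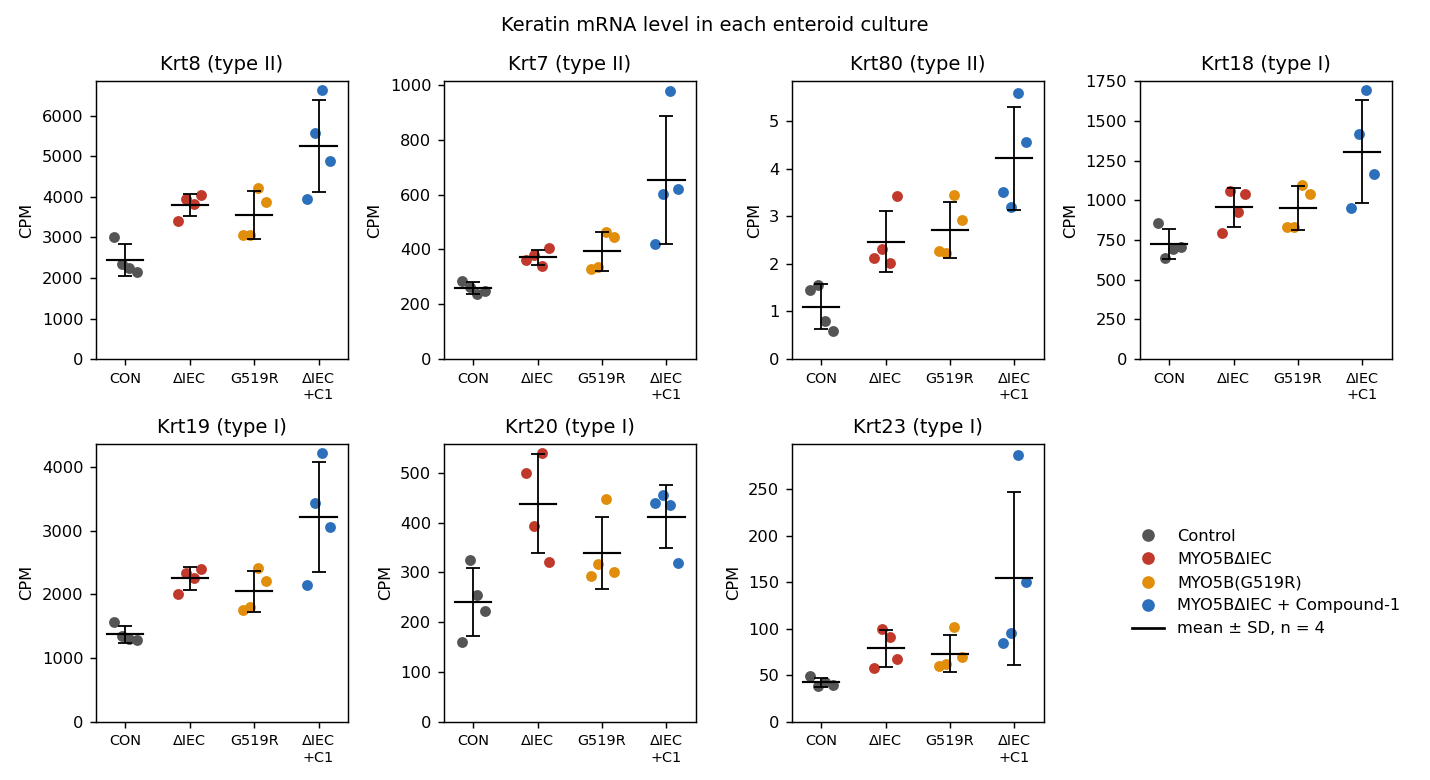
CPM of each keratin gene (y axis, from 0) in each culture of the 4 groups (x axis), with points for cultures and black lines for mean ± SD (n = 4). For Krt8, Krt19, Krt7, Krt23 and Krt80 every culture of MYO5BΔIEC, MYO5B(G519R) and treated MYO5BΔIEC is above every control culture, and Krt20 is the member whose treated mean (412 CPM) is below that of untreated MYO5BΔIEC (438 CPM).

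The first comparison addressed what induced loss of MYO5B does to the epithelium. In MYO5BΔIEC against control, 6 of the 7 keratins rose and none fell, where 27.4% of the 17951 genes tested were called and 13.5% were called higher. Krt23 rose by 0.90 on the log2 scale (SE 0.19, edgeR adjusted p = 0.00643), Krt19 by 0.72 (SE 0.15, 0.00763) and Krt20 by 0.87 (SE 0.24, 0.0209). The type II genes Krt8 (log2 fold change 0.65, SE 0.17, edgeR adjusted p = 0.0184), Krt7 (0.52, SE 0.13, 0.0163) and Krt80 (1.17, SE 0.36, 0.0349) rose as well. For Krt8 this is a 1.57-fold difference with a 95% interval from 1.21 to 2.04. Krt18 was at 0.41 (SE 0.16, edgeR adjusted p = 0.0853), past the threshold with DESeq2 (DESeq2 adjusted p = 0.0346). It also passed in edgeR without control culture 1 (edgeR adjusted p = 0.0137). For 5 members no culture overlapped between the groups, where 13% of genes were above control in this way.

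The calls of Krt19 and Krt23 held when any 1 of the 8 cultures was left out, at edgeR adjusted p values up to 0.035 and 0.0251. With control cultures 1 to 4 left out in turn, 7, 5, 2 and 2 members were called, and with MYO5BΔIEC cultures 1 to 4 left out, 4, 3, 5 and 5. Over all genes (17608 to 17819 tested), 7474, 3385, 2983 and 2970 were called without control cultures 1 to 4. The numbers were 3468, 2963, 3974 and 4774 without MYO5BΔIEC cultures 1 to 4. Every fold change stayed above 0 in these fits.

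In MYO5B(G519R) against control, which addressed a point mutation of the motor in place of its loss, 5 of 7 keratins rose and none fell (26.8% of 17829 genes called, 13.1% higher). Krt80 rose by 1.30 on the log2 scale (SE 0.34, edgeR adjusted p = 0.0207), Krt23 by 0.78 (SE 0.18, 0.0122), Krt7 by 0.60 (SE 0.15, 0.0171), Krt19 by 0.57 (SE 0.16, 0.0243) and Krt8 by 0.55 (SE 0.18, 0.0467). Krt18 was at 0.39 (SE 0.15, edgeR adjusted p = 0.0853) and Krt20 at 0.50 (SE 0.22, 0.125). DESeq2 called Krt18 (DESeq2 adjusted p = 0.0271), and so did edgeR without control culture 1 (edgeR adjusted p = 0.00688). The groups did not overlap for 5 members, against 13.6% of genes that were above control in this way. The call of Krt23 held with any 1 culture left out. That of Krt8 held in 1 of 8 such fits (edgeR adjusted p up to 0.127) and that of Krt19 in 3 of 8. Leaving out control cultures 1 to 4 in turn gave 6, 3, 1 and 2 members called, and leaving out MYO5B(G519R) cultures 1 to 4 gave 4, 4, 2 and 3. Over all genes (17449 to 17695 tested), 8146, 3235, 2880 and 3028 were called without control cultures 1 to 4. The numbers were 3164, 2960, 3192 and 4426 without MYO5B(G519R) cultures 1 to 4. Both comparisons share the control cultures.

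Set directly against each other, the models did not differ for any member in the edgeR test (0 of 7, with 0.00557% of 17943 genes called). The log2 fold change of MYO5B(G519R) over MYO5BΔIEC was lowest for Krt20, at -0.37 with a 95% interval from -0.78 to 0.04, and between -0.14 and 0.14 for the other 6. All 7 overlapped between the models, where 0.83% of genes were wholly higher and 1.02% wholly lower in MYO5B(G519R). At an unadjusted p under 0.05 the count was 0 as well, and DESeq2 called 0. For Krt8 the interval ran from a 0.748-fold to a 1.17-fold level, so differences within it are not excluded with 4 cultures a group.

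**Figure D2:**
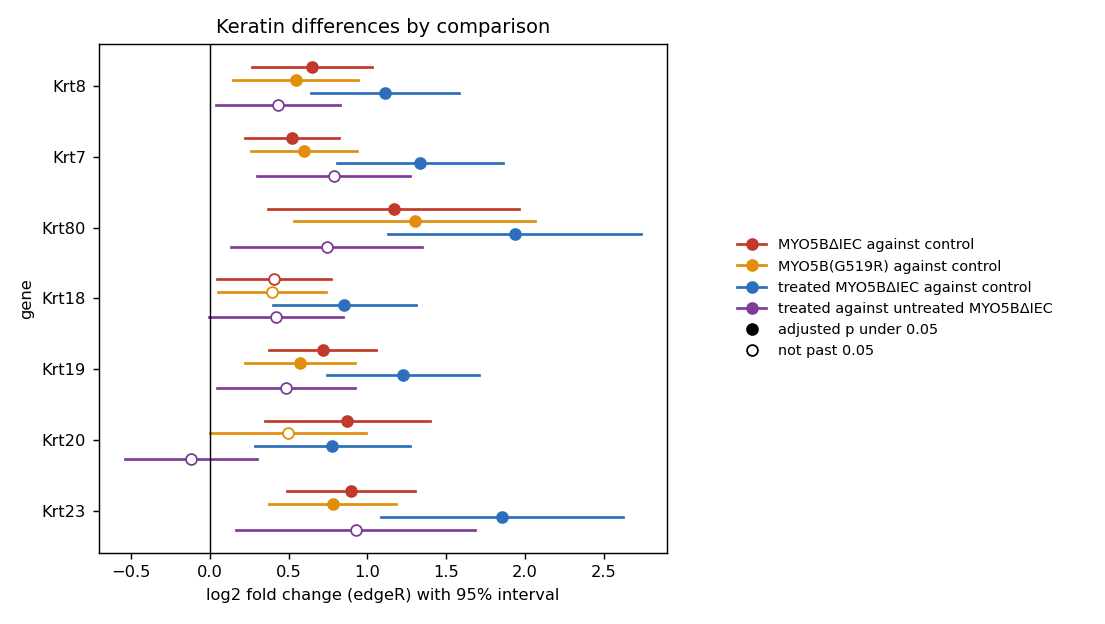
log2 fold change of each keratin gene (x axis) with its 95% interval, by gene (y axis) and comparison (color), with filled points past an edgeR adjusted p of 0.05 and open points not past it. All 7 points of treated MYO5BΔIEC against control are filled, and the purple points of treated against untreated enteroids are open, with Krt20 alone below 0.

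Compound-1 was then compared with vehicle within MYO5BΔIEC, which asked whether activation of LPAR5 shifts the pattern of MYO5B loss. edgeR called 0 of the 7 keratins and 0% of 18037 genes (1355 genes at an unadjusted p under 0.05, 91 genes called by DESeq2, none of them a member). All members but Krt20 had a higher mean with treatment than without it. The largest log2 fold changes were 0.93 for Krt23 (SE 0.35, edgeR adjusted p = 0.585), 0.79 for Krt7 (SE 0.22, 0.532) and 0.74 for Krt80 (SE 0.28, 0.582). Krt19, Krt8 and Krt18 were at 0.48, 0.43 and 0.42, and Krt20 was at -0.12 (SE 0.19, edgeR adjusted p = 0.965). Before adjustment, 5 members had a p under 0.05, the lowest being that of Krt7 (edgeR unadjusted p = 0.0044). Without treated culture 3 the log2 fold changes of Krt23 and Krt7 were 0.44 and 0.53. The 7 regenerative and fetal markers summed to 2310.5 CPM in that culture and to 539 to 862 in the other treated cultures, and their part in the keratin values was not tested.

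Against control, all 7 keratins rose in treated MYO5BΔIEC enteroids (29.4% of 17937 genes called, 15.7% higher). The log2 fold change was 1.93 for Krt80 (SE 0.36, edgeR adjusted p = 0.00592), 1.85 for Krt23 (SE 0.35, 0.00583), 1.33 for Krt7 (SE 0.24, 0.00521), 1.23 for Krt19 (SE 0.22, 0.0052) and 1.11 for Krt8 (SE 0.21, 0.00608). Krt18, not called by edgeR in either untreated model with all cultures kept, rose by 0.85 (SE 0.21, edgeR adjusted p = 0.0129). Krt20 rose by 0.78 (SE 0.22, edgeR adjusted p = 0.0256). As folds these were 3.61 for Krt23 (95% interval 2.12 to 6.15) and 1.81 for Krt18 (1.32 to 2.48). For 6 members no treated culture overlapped control, against 14.3% of genes above control in this way. Krt20 alone lost its call with a culture left out, without treated culture 1 (edgeR adjusted p = 0.0534), treated culture 3 (0.0614), control culture 3 (0.0618) or control culture 4 (0.0747). Without treated culture 3 the value of Krt23 was 1.36 (edgeR adjusted p = 0.00802).

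The 7 genes summed to 2609 ± 337 FPKM in control and averaged 4133 ± 315 with MYO5BΔIEC, 3836 ± 613 with MYO5B(G519R) and 5662 ± 1407 with treatment (SD, n = 4). The ratio of type II to type I FPKM was 0.914 ± 0.0703 for control, 0.926 ± 0.0186 for MYO5BΔIEC, 0.941 ± 0.0196 for MYO5B(G519R) and 0.945 ± 0.0303 for treated cultures. Control culture 1 was at 1.01 and the other controls at 0.904, 0.880 and 0.856, and without it the control ratio was 0.880 ± 0.0240 (SD, n = 3, an alternative chosen after seeing the data). All 12 other cultures lay between 0.908 and 0.984, above these 3 controls and below control culture 1. Krt8 held 46.3 ± 1.92% of the pool in control and 46.8 to 47.0% in the other groups on average, and Krt19 27.7 ± 0.505% in control and 30.1 ± 1.52% with treatment. The share of Krt18 was 17.1 to 20.02% in control, 14.8 to 17.02% with MYO5BΔIEC, 16.6 to 17.5% with MYO5B(G519R) and 15.3 to 16.2% with treatment, so that MYO5BΔIEC and treated cultures lay below every control. Krt23 held 1.02% of the pool in control and 1.64 ± 0.646% with treatment. Within the main pair, the ratio of Krt8 to Krt18 was 2.58, 2.69, 2.39 and 2.23 in control and 3.16, 2.73, 3.02 and 2.85 with MYO5BΔIEC. MYO5B(G519R) cultures had ratios of 2.68, 2.71, 2.83 and 2.74, and treated cultures of 3.04, 2.89, 2.87 and 3.08. MYO5BΔIEC and treated cultures lay above every control and 1 MYO5B(G519R) culture did not. These ratios are descriptions of chosen genes and were not tested.

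**Figure D3:**
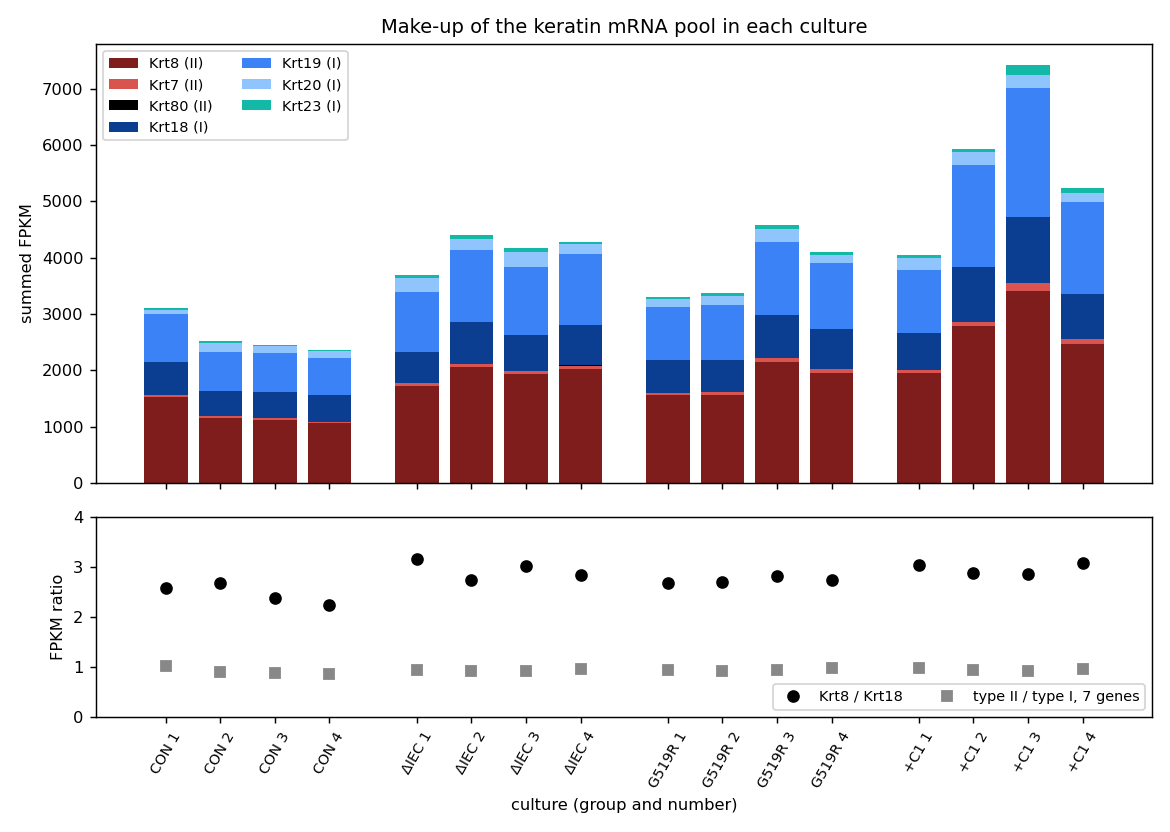
Top, summed FPKM of the 7 keratin genes (y axis) stacked by gene in each of the 16 cultures (x axis; CON control, ΔIEC MYO5BΔIEC, G519R MYO5B(G519R), +C1 treated MYO5BΔIEC), and bottom, the FPKM ratios of Krt8 to Krt18 and of type II to type I (y axis). The stacks reach 2361 to 3106 FPKM in control and 4054 to 7424 in treated cultures, while the type II to type I ratio stays between 0.856 and 1.01 in control and between 0.912 and 0.984 in treated cultures.

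Across the 16 cultures, Pearson's r of log2 CPM was 0.99 between Krt8 and Krt19, 0.97 between Krt8 and Krt18, and at least 0.81 for every pair without Krt20. Pairs with Krt20 had r between 0.44 and 0.59. After group means were taken out, Krt8 and Krt18 were still at 0.94 and Krt7 and Krt19 at 0.93, while the pairs of Krt80 with Krt18 and Krt23 were at 0.43 and 0.44 (0.31 in both without treated culture 3) and pairs with Krt20 between -0.19 and 0.02. These 16 points include 4 groups and share their libraries, so the r values describe the cultures and carry no p.

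Of 13545 genes with a mean of at least 1 CPM, the non-keratin genes most like the members were named by the same r. Plaur, the urokinase receptor, was among the 3 closest genes of Krt8 (r = 0.98), Krt7 (0.97), Krt18 (0.95) and Krt19 (0.97). Fosl1, which encodes an AP-1 subunit, was close to Krt8 (0.98) and Krt19 (0.97). The list for Krt7 was led by Bok (0.98), a BCL2 family gene, with Misp (0.97), and that for Krt8 ended with F11r (0.97), a tight junction gene. Krt18 was closest to Rnf39 (0.97) and also to Prkab1 (0.94), and Krt19 was closest to Mcl1 (0.98). Krt23 was closest to Adam8 (0.97), Anxa1 (0.97), one of the regenerative markers, and Ctnnb1 (0.96), and Krt80 to Dse, Anxa10 and Traf3 (each 0.95). Krt20 had other neighbors, with Xdh, xanthine dehydrogenase, at 0.92, Tmem253 at 0.91 and Gml2 at 0.90.

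The other 47 keratin genes were rare, and 11 of them had no count in any culture. Only Krt15, Krt4, Krt87 and Krt10 reached a mean of 1 FPKM in a group. Krt15, a type I keratin of basal cells, was at 0.188, 2.93, 1.89 and 2.04 CPM in control and at 3.90, 12.6, 11.2 and 11.8 in MYO5BΔIEC, where it rose by 2.49 on the log2 scale (SE 0.61, edgeR adjusted p = 0.013), and control culture 1 was the lowest of the 16. Krt4, a type II keratin of mucosal stratified epithelia, was at 7.71, 7.89, 25.2 and 16.2 CPM in treated enteroids against 0.784, 5.88, 3.11 and 1.19 in control (log2 fold change 2.38, SE 0.62, edgeR adjusted p = 0.0173), and lost its call without treated culture 3 or control culture 4 (edgeR adjusted p up to 0.0557). Against control, Krt15 did not pass in MYO5B(G519R) or treated enteroids (log2 fold change 1.57 and 1.92, edgeR adjusted p = 0.12 and 0.0547). Krt4 did not pass in MYO5BΔIEC or MYO5B(G519R) (edgeR adjusted p = 0.291 and 0.383). Krt87 did not pass in any comparison (log2 fold change 0.49 to 0.73 against control). Krt10, a type I keratin of suprabasal skin, fell by 0.77 on the log2 scale in MYO5BΔIEC (SE 0.22, edgeR adjusted p = 0.0269). That call held in 2 of 8 fits with a culture left out. Krt10 did not pass against control in MYO5B(G519R) or treated enteroids (edgeR adjusted p = 0.153 and 0.527).

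Krt5, the type II keratin of basal cells, had 0 counts in all 4 control cultures. MYO5BΔIEC cultures had 5, 49, 18 and 86 counts, MYO5B(G519R) cultures 9, 2, 66 and 30, and treated ones 9, 66, 212 and 21. Against a floor of 3 counts over the 4 controls, its summed counts, scaled to total counts, were at least 58.1-fold, 36.9-fold and 102-fold higher. This bound covers counting error in control and not the spread between cultures. Krt5 passed the test in all 3 (edgeR adjusted p = 0.00667, 0.0197 and 0.0083). With limma on log2(FPKM + 1) the latter pair did not pass (limma adjusted p = 0.101 and 0.0697). Its basal partner Krt14 and the basal regulator Trp63 averaged at most 0.305 CPM in any group. Krt84, a type II hair keratin, had 0 to 3 counts in controls and 6 to 34 in the other cultures and also passed in all 3 (edgeR adjusted p = 0.0301, 0.0109 and 0.00798). In MYO5BΔIEC that call was lost without control culture 2, 3 or 4 (up to 0.0934). Krt79 passed in treated enteroids only, where it rose by 2.79 on the log2 scale (SE 0.74, edgeR adjusted p = 0.0189), and held in 4 of 8 fits with a culture left out. Krt90 had 0 counts in control and 0, 4, 13 and 13 in treated enteroids, in sum at least 9.91-fold higher by the same bound (edgeR adjusted p = 0.0414, held in 2 of 6 such fits). Krt5, Krt79, Krt84 and Krt90 passed the filter on low counts only through the groups where they were high. Among controls, Krt79 reached 10 counts in culture 2 alone (19 counts). Their adjusted p values are therefore no separate support for a rise, and no count of called genes is given over the other keratins.

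Hemidesmosomes and plakins anchor keratin filaments. Of 10 genes on this list, 7 rose in each model and 8 with Compound-1, and none fell. Over all genes tested, 13.5% rose in MYO5BΔIEC, 13.1% in MYO5B(G519R) and 15.7% with treatment. The median log2 fold change was 1.04, 0.91 and 1.19, against -0.01, -0.05 and -0.05 over all genes tested. Itgb4, which encodes the hemidesmosomal integrin chain, averaged 55.8 ± 12.3 CPM in control, 267 ± 57.0 with MYO5BΔIEC and 217 ± 75.8 with MYO5B(G519R) (log2 fold change 2.26 and 1.96, edgeR adjusted p = 0.000852 and 0.00192). Plec, plectin, which links keratin to integrin, rose by 2.11 and 1.84 on the log2 scale (edgeR adjusted p = 0.0017 and 0.00529), and Ppl, periplakin, by 1.49 and 1.38 (0.00142 and 0.00312). The tetraspanin Cd151 was at -0.15 and -0.19 and did not pass (edgeR adjusted p = 0.386 and 0.196). Itgb4, Plec and Ppl kept their calls in all 8 fits with a culture left out, in both models and in treated enteroids.

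Of 14 desmosome genes, 11 were tested, of which 6 rose and 1 fell in MYO5BΔIEC (13.5% and 13.8% over all genes). In MYO5B(G519R) 4 rose and 1 fell (13.1% and 13.7% over all genes), and with treatment 6 rose and none fell (15.7% and 13.7%). Jup, plakoglobin, rose by 1.36 and 1.22 on the log2 scale in the models (SE 0.22 in both, edgeR adjusted p = 0.00242 and 0.0049). Dsp, desmoplakin, which binds keratin at the desmosome, rose by 1.06 and 0.89 (edgeR adjusted p = 0.00181 and 0.00393), from 255 ± 37.0 CPM in control. Pkp3, plakophilin 3, rose by 0.82 and 0.74 (edgeR adjusted p = 0.00255 and 0.00284). The desmosomal cadherin Dsc2 was at -0.03 and -0.25 and did not pass (edgeR adjusted p = 0.923 and 0.214). Pof1b fell by 0.52 and 0.74 on the log2 scale (edgeR adjusted p = 0.045 and 0.00384) and lost its call in MYO5BΔIEC without any 1 of control cultures 2 to 4 or of MYO5BΔIEC cultures 1, 2 and 4. Without any 1 of control cultures 2 to 4, 3 desmosome genes rose in MYO5BΔIEC.

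**Figure D4:**
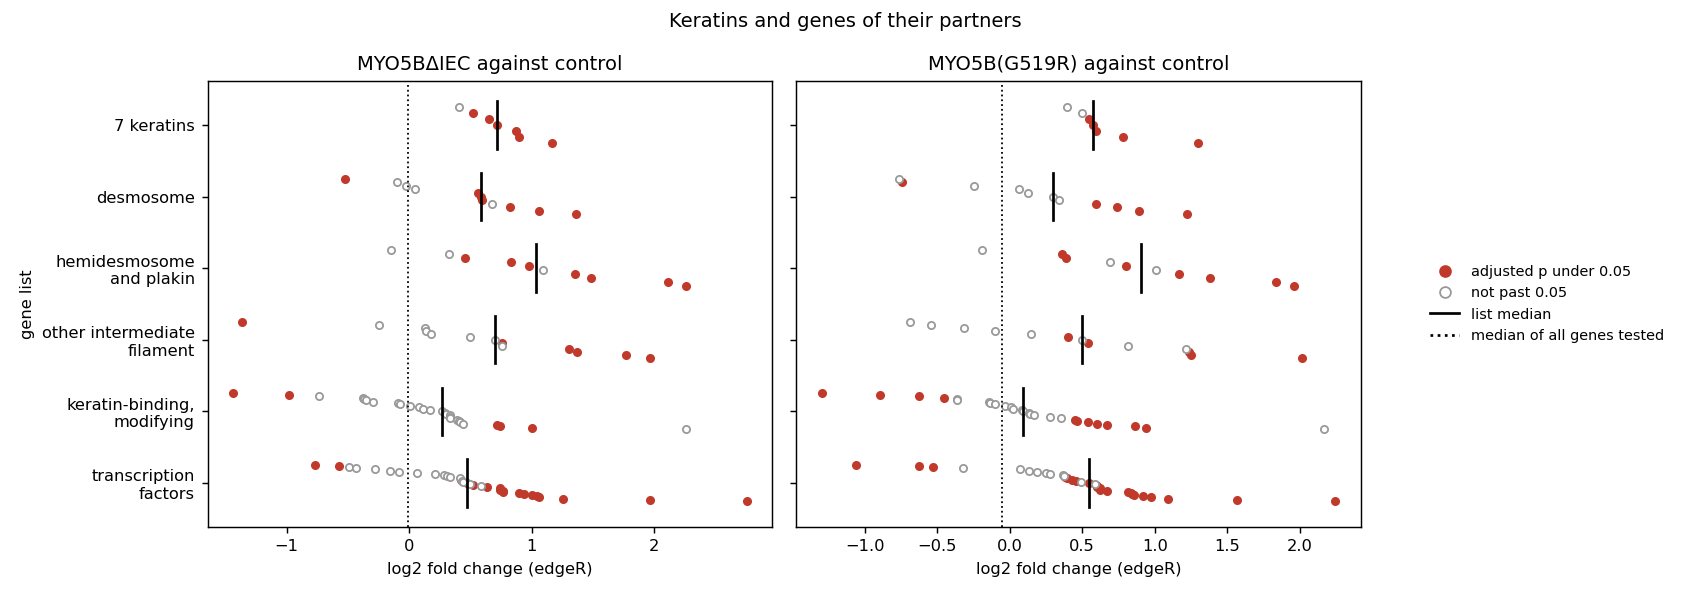
log2 fold change (x axis) of each tested gene of the 7 keratins and 5 partner lists (y axis), in MYO5BΔIEC and in MYO5B(G519R) against control, with filled points past an edgeR adjusted p of 0.05, bars for list medians and a dotted line for the median of all genes. The keratin, hemidesmosome and plakin lists hold no filled point below 0.

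Of the other intermediate filament genes, 5 of 13 rose and 1 fell in MYO5BΔIEC, 5 of 13 rose and none fell in MYO5B(G519R), and 3 of 14 rose in treated enteroids. The shares over all genes were 13.5% higher and 13.8% lower, 13.1% and 13.7%, and 15.7% and 13.7% in that order. Lmna, which encodes the nuclear lamins A and C, rose by 1.37 and 1.25 on the log2 scale in the models (SE 0.19 and 0.18, edgeR adjusted p = 0.00168 and 0.00224). Eppk1, epiplakin, rose by 1.30 and 1.23 (edgeR adjusted p = 0.0206 and 0.0338), calls that held in 3 and 1 of 8 fits with a culture left out. Vim, vimentin, the filament gene of mesenchymal cells, was at 20.6 CPM in control and did not pass (log2 fold change 0.14 and -0.54, edgeR adjusted p = 0.857 and 0.222). Without control culture 2 or MYO5BΔIEC culture 2, 2 of these genes rose in MYO5BΔIEC. Without any 1 of control cultures 2 to 4, at most 3 rose in each model and 1 with Compound-1, which was also the count without treated culture 3 or 4, and 3 rose in MYO5B(G519R) without its culture 1, 2 or 4.

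Of 27 genes for keratin-binding, modifying and turnover proteins, 3 rose and 2 fell in MYO5BΔIEC (13.5% and 13.8% over all genes). The counts were 7 and 4 for MYO5B(G519R) (13.1% and 13.7% over all genes), and 8 and 3 for treated enteroids (15.7% and 13.7%). Sfn, a 14-3-3 protein of epithelia, rose by 0.72 and 0.86 on the log2 scale in the models (edgeR adjusted p = 0.0128 and 0.006). Fbf1, which encodes a protein that binds keratin, rose by 1.00 and 0.94 (edgeR adjusted p = 0.00313 and 0.00232). Krtcap2, which despite its name encodes a subunit of the oligosaccharyltransferase, fell by 1.44 and 1.29 (edgeR adjusted p = 0.00158 and 0.0038), from 181 ± 48.1 CPM in control. Without control culture 1, 9 rose and 7 fell in MYO5BΔIEC, 11 rose in MYO5B(G519R) and 5 fell in treated enteroids, and 5 rose in MYO5BΔIEC without its culture 3. Without any 1 of control cultures 2 to 4 or treated cultures 3 and 4, 5 rose in treated enteroids, and without control culture 2 or 3, 1 fell in MYO5B(G519R).

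Of 36 epithelial transcription factor genes, 33 were tested against control, of which 16 rose and 2 fell in MYO5BΔIEC. For MYO5B(G519R) 20 rose and 3 fell, and for treated enteroids 23 rose and 2 fell. Shares over all genes were 13.5% higher and 13.8% lower, 13.1% and 13.7%, and 15.7% and 13.7% in that order. Grhl3, a regulator of epidermal barrier genes, averaged 1.39 ± 0.274 CPM for control, 9.37 ± 3.20 for MYO5BΔIEC, 6.58 ± 4.19 for MYO5B(G519R) and 23.2 ± 20.6 for treated enteroids (edgeR adjusted p = 0.0014, 0.0075 and 0.00398). Fosl1 rose by 1.97 and 1.57 on the log2 scale in the models (SE 0.36 and 0.35, edgeR adjusted p = 0.00401 and 0.0102). Notch1, a receptor that also acts in the nucleus, rose by 1.04 and 0.97 (edgeR adjusted p = 0.00258 and 0.00266). The intestinal regulator Cdx2 was at 0.29 and 0.43, of which the second passed (edgeR adjusted p = 0.169 and 0.0322). Without control culture 2 or MYO5BΔIEC culture 2, 10 rose in MYO5BΔIEC. Without any 1 of control cultures 2 to 4, 11 rose in MYO5B(G519R), where 12 rose without its culture 1 or 2. In treated enteroids 14 or 15 rose and none fell without any 1 of control cultures 2 to 4 or treated cultures 3 and 4.

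For 0 genes of these 7 lists did edgeR call a difference between treated and untreated MYO5BΔIEC, as it did for all genes, and DESeq2 called 1 type II keratin. Marker lists of other epithelial states were read beside the keratins. Of all genes tested, 13.5% rose in MYO5BΔIEC, 13.1% in MYO5B(G519R) and 15.7% with Compound-1, and 13.8%, 13.7% and 13.7% fell. Of the regenerative and fetal markers, 4 of 6 tested rose in MYO5BΔIEC, 3 in MYO5B(G519R) and 5 with Compound-1, and their sum was 345 to 510 CPM, 237 to 597 and 539 to 2310.5, against 107 to 333 in control. Without control culture 1, 5 rose in MYO5B(G519R), and 2 without control culture 2 or 4 or any 1 of its cultures 2 to 4. Clu, which marks revival stem cells, rose by 2.25 and 2.57 on the log2 scale in the models (edgeR adjusted p = 0.00144 and 0.00627). The 8 markers of stratified epithelium, which include Krt5, summed to 77.2 to 157 CPM for MYO5BΔIEC, 46.1 to 113 for MYO5B(G519R) and 105 to 243 for treated enteroids, with Trp63 and Sprr2d at or near 0. On this list, where Krt5 was tested only through the cultures in which it was high, 3 rose in each model and 4 in treated enteroids. In MYO5B(G519R) the number was 1 without its culture 3 or 4 and with limma on log2(FPKM + 1), and in MYO5BΔIEC 2 to 4 with a culture left out. Of 4 mesothelial markers tested, 2 rose in MYO5BΔIEC (1 without control culture 1 or 4, or any 1 of MYO5BΔIEC cultures 2 to 4), 1 rose in MYO5B(G519R), and 2 rose and 1 fell in treated enteroids, with Wt1 at 0 in every culture.

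Of 12 enterocyte markers, 3 rose in MYO5BΔIEC, 2 rose and 2 fell in MYO5B(G519R), and 3 rose and 5 fell with treatment. Their sums were 10584 to 18623 CPM, 9075 to 12957 and 7526 to 11798 in that order. Without control culture 1, 3 of them fell in MYO5BΔIEC and 6 in each of the other comparisons with control. Without any 1 of control cultures 2 to 4, none fell in either model and 1 fell with treatment, and the number was 0 without treated culture 3, 1 without treated culture 4 and 0 or 1 without any 1 MYO5B(G519R) culture. Proliferation markers, 8 in all, fell for 4 in MYO5BΔIEC and for 3 in MYO5B(G519R) and with treatment, and in MYO5B(G519R) for 1 without any 1 of control cultures 2 to 4 or of its cultures 2 and 3. Paneth cell markers, 6 in all, fell for 2 in each model and 1 with treatment, for 4 to 6 without control culture 1 and for none without control culture 2 or 3. Tuft cell markers fell for 1 of 6 tested in MYO5BΔIEC, 2 in MYO5B(G519R) and 4 with treatment, and without control culture 4 these counts were 0, 0 and 2. The last was 1 without treated culture 4. Counts of 1 of 6 or 2 of 12 are near the shares over all genes. Goblet cell markers, 7 in all, rose for 2 in every comparison with control, and fell for 2 in MYO5BΔIEC and with treatment and for 3 in MYO5B(G519R), counts of 1, 1 and 2 without any 1 of control cultures 2 to 4. The part of these shifts in the keratin values was not tested.

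The pseudogene Krt8-ps, 98.6% identical to Krt8 over 941 bases, had 0.202 to 0.285% of the counts of Krt8, and Gm5200, a copy of Krt18, had 0. The Krt7 transcript matched 94 other genes at 90% identity or more over at least 100 bases, and 0 at 95%. For Krt19, Krt20 and Krt23 no such gene was found. Since the handling of reads with several positions is not given, reads of Krt7 at such matches are uncertain.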

How the data were processed

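Poly(A)-selected RNA was sequenced, and the authors mapped the reads to GRCm38 by STAR (v2.5) and made the deposited counts per gene by HTSeq (v0.6.1). The deposited FPKM are the same counts divided by gene length and a library size, and served for levels between genes. How reads with several positions or from either strand were treated is not given in the sources used here. For each comparison edgeR 4.0.16 (R 4.3.3) was run on the 8 libraries concerned, with TMM scaling, a minimum of 10 counts in 2 libraries, the quasi-likelihood test and p-values adjusted over all genes kept after Benjamini and Hochberg (threshold 0.05). The procedure was tested on simulated data. SE and intervals are from the same fits. The members, lists and tests were chosen with earlier results of these data known. All 7 members passed the filter in every comparison. Other keratins were named where past the threshold against control or among the 3 most abundant, list genes where they were the up to 3 with the largest change past the threshold in both models without overlap, and like genes by Pearson's r. Genes outside this rule (Vil1, Gm35853, Krt14, Trp63, Dsc2, Vim, Cdx2, Clu, Pof1b, Cd151, Sprr2d, Wt1, Krt8-ps, Gm5200) were named after their values were seen. Alternatives were DESeq2 1.42.0, its size factors, other filters and designs, limma 3.58.1 on log2(FPKM + 1) and log2(FPKM + 0.1), removal of the trend on gene length, reads of Krt8-ps added to Krt8, and each culture left out.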

Additional observations from a re-analysis of the deposited data

Results flagged for a closer look

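In 28 sets of 4 cultures (7 keratins in 4 groups), 1 culture was tested for standing apart from the other 3 by the gap to its neighbor over the range of the group. Chance gives about 1 such set in 20, and 2 of 28 were found, both for Krt20. This number is near what chance gives. MYO5B(G519R) culture 3 was at 447 CPM of Krt20 with the others at 293 to 316 (gap over range 0.848476). Treated culture 4 was at 319 CPM with the others at 435 to 455 (0.848719).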

How the results depend on the processing

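Every fold change of a member against control stayed above 0 under all alternatives, and calls near the threshold did not hold under all of them. For MYO5BΔIEC the count of members called was 3 with the replicate number as a block (Krt19, Krt20 and Krt23), and 2 to 7 with 1 culture left out. For MYO5B(G519R) it was 2 with the replicate block (Krt23 and Krt80), 3 with limma on either FPKM scale, and 1 to 6 with 1 culture left out. In the other comparisons the count moved by at most 1 and no member was called between treated and untreated enteroids. The cause of these changes was not tested. Fits with a culture left out also hold fewer cultures, and the part of this was not tested either. Against control the numbers do not pair the cultures. With 4 pairs a comparison, the correlation of deviations was over 0.1 in 0 pairs for MYO5BΔIEC and 1 for MYO5B(G519R) against control. In each model, 1 of 4 cultures correlated best with the control of its own number. All genes called under the block were 3647 and 3691 against 4910 and 4778. Between the models the pairs were at 0.0622 to 0.535, 3 of 4 over 0.1. Of the 4 MYO5B(G519R) cultures, 3 correlated best with the MYO5BΔIEC culture of their own number, and the block called 0 members. There, values near 0 changed sign, with Krt18 at 0.00403 without a filter and -0.0885 to 0.0552 with 1 culture left out, Krt7 at -0.00751 to 0.158 and Krt23 at -0.313 to 0.0348. Over all genes, the calls in MYO5BΔIEC were 7474 without control culture 1 and 2970 without control culture 4, those in MYO5B(G519R) 8146 and 3028 likewise, those in treated enteroids 2957 without control culture 3 against 5275, and those of treated against untreated enteroids 91 with DESeq2 and 12 without a filter against 0. Between the models DESeq2 called 4 genes against 1. The ratio of type II to type I was 0.913 in control with all keratin genes and 0.880 without control culture 1. Depth limited Krt80 and the rare keratins.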
